A study of Homo sapiens with 12 samples.

Results

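The genes described here encode the proteins of the cytosolic ribosome in HEK293T, an established human line of embryonic kidney origin that carries SV40 large T antigen. They were chosen by name, as RPL or RPS followed by a number, with an optional A or X, together with RPLP0, RPLP1, RPLP2 and RPSA, on sequences named as chromosomes. This gave 77 genes, 46 of the large 60S subunit and 31 of the small 40S subunit, of 63571 gene entries with a locus, and all 77 were among the 14806 genes tested. The rule used no measured value, though it was set with earlier results of these data known. The cells carried 2 µg of a plasmid whose GFP reporter held, in the 3′ untranslated region, a BCL2L11 trigger, a TRIM9 trigger or, as control, no added trigger (GFP). A trigger is a site that pairs extensively with a microRNA and leads to its degradation, and the study asked whether the BCL2L11 and TRIM9 triggers did this to miR-221/222 and miR-218. Poly-A RNA was taken 48 h after transfection from 2 biological replicates per plasmid, 6 libraries of the 12 in the series. All groups share the reporter and the cell line, PEI or lipofectamine carried the plasmid (which sample received which is not stated in the labels), and the labels name no sort for cells that took it up.

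Each cytosolic ribosome holds 1 copy of nearly every one of these proteins, and the acidic stalk proteins are the exception. Their mRNAs are among the most abundant of growing cells. Most start with a C followed by an unbroken run of C and T letters in the gene, the 5′ terminal oligopyrimidine (TOP) tract, through which LARP1 and mTOR signalling set their translation. HEK293T cells divide fast and draw on this supply of ribosomes.

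The start of the mRNA is the feature that ties these genes together, so the 25 bases around the RefSeq start of several members are shown, 10 before it and 15 from it on. They are from GRCh38.p14, read 5′ to 3′ on the strand of the gene, and capitals mark the run of C and T that opens with a C at the start and has at least 4 more C or T letters. The set holds the 3 stalk genes, RPS6, RPSA, RPL35, RPL18, RPS14 and RPS15. RPL35 and RPL18 are with RPLP2 and RPS15 the 4 of lowest p in the comparison of library sets, and RPS14 had the smallest difference there. In RPS15 no such run opens at the RefSeq start, though C and T letters close its window.

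RPLP0: ggcgcgaggcCCTTCTCTCgccagg
RPLP1: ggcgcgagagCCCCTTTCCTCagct
RPLP2: tcggcgccttCCTTTTCCTCCCTgt
RPS6: gaagttggccCTCTTTTCCgtggcg
RPSA: tgccgcctgtCTTTTCCgtgctacc
RPL35: cgcctacttcCTCTTTCCCTCggag
RPL18: agcccgttctCTCTTTCCggacctg
RPS14: ccctcccactCTCTCTTTCCggtgt
RPS15: aggcgcggaccaaagcgatctcttc

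These windows lie at chr12:120201097-120201121 (minus strand) for RPLP0, chr15:69452808-69452832 (plus) for RPLP1, chr11:809957-809981 (plus) for RPLP2 and chr9:19380222-19380246 (minus) for RPS6. Those of RPSA, RPL35 and RPL18 lie at chr3:39406710-39406734 (plus), chr9:124861943-124861967 (minus) and chr19:48619164-48619188 (minus). RPS14 was read at chr5:150449725-150449749 (minus) and RPS15 at chr19:1438386-1438410 (plus). Each window spans the end of the promoter and the first bases of the first exon. RefSeq promoter entries were matched for 62 of the 77 genes, and 46 of the 62 (74.2%) had a TOP tract at 1 or more annotated starts, with a median length of 8 letters within the window. Of 9854 other tested genes with an entry, 702 (7.12%) had one. Over starts rather than genes, a tract was found at 46 of 77 starts of the members (59.7%) and at 4.07% of the 35116 starts in the table.

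The level of each gene is given as FPKM (fragments per kilobase of transcript, scaled to the size of the library), summed over its transcripts, of which the members had 2 to 27 each and 782 in all. The libraries held 3.397 to 4.523 Gb of assigned bases (coverage times transcript length), and 83584 to 110534 transcripts were above 0, the fewest in GFP replicate 1. The deposited title numbers put replicate 2 of each plasmid in one run of numbers and replicate 1 in another, called library sets 2 and 1 below. The labels give no meaning to these numbers, and each set holds 1 library of each plasmid. BCL2L11 stood at 11275 and 11484 FPKM in BCL2L11 cells (replicates 2 and 1), against 6.15 and 5.40 in GFP cells. TRIM9 had 3948 and 5297 FPKM in TRIM9 cells, against 2.92 and 1.74 in GFP cells. Both counts include reads from the plasmid, and each label matched its trigger. Among markers of HEK293 cells, VIM was at 368 to 500 FPKM and PAX2 at or under 0.613 FPKM, while 6 fibroblast, 6 blood and 6 epithelial markers summed to 1.57 to 7.83 FPKM per list and library.

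Together the 77 genes made up 16.5% and 25.1% of the summed FPKM in BCL2L11 cells (replicates 2 and 1), 17.7% and 24.8% in TRIM9 cells, and 15.8% and 24.7% in GFP cells. The 3 plasmids overlapped, with means of 20.8% ± 6.12 (BCL2L11), 21.3% ± 5.00 (TRIM9) and 20.3% ± 6.33 (GFP; SD, n = 2 each). The library sets did not overlap, at 16.7% ± 0.986 in set 2 and 24.9% ± 0.215 in set 1 (SD, n = 3 each). These are bulk libraries, so a change in the share of cells and a change in RNA per cell cannot be told apart. FPKM favours short transcripts in such a sum. As a share of assigned bases the members held 7.38% ± 0.543 in set 2 and 13.1% ± 0.476 in set 1 (SD, n = 3 each). The ratio of summed FPKM of 60S to 40S genes was 1.24 in GFP replicate 1 and 1.32 to 1.41 in the other libraries. Of the 50 genes of highest FPKM, 28 or 29 were members in the libraries of set 2 and 36 in each library of set 1.

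**Figure D1:**
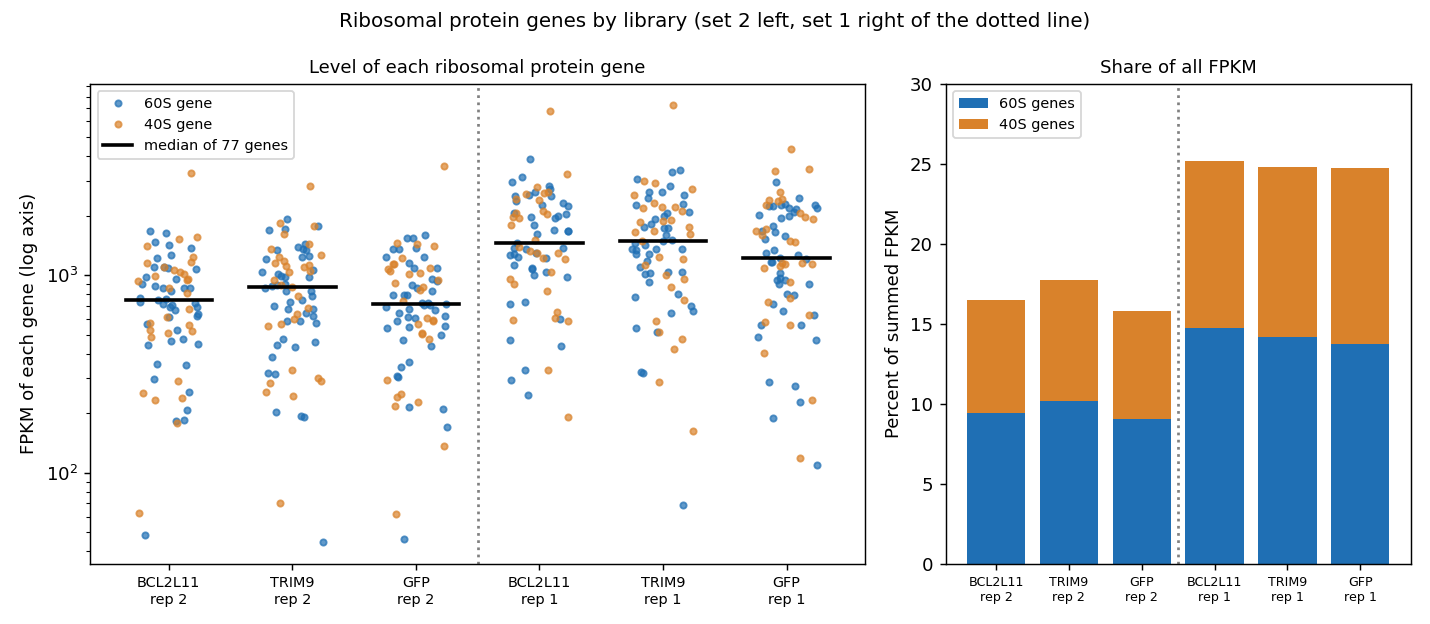
FPKM of each of the 77 genes in each library (left, log axis, 1 point per gene, bars at the median) and the percent of summed FPKM in 60S and 40S genes (right, stacked bars from 0), with set 2 left and set 1 right of the dotted lines. The medians of set 2 (746, 866 and 718 FPKM for BCL2L11, TRIM9 and GFP) all lie below those of set 1 (1460, 1483 and 1222 FPKM).

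Levels ran over more than an order of magnitude among genes whose proteins are mostly used in equal number. RPS2, a protein at the mRNA entry channel, was the highest in every library, with 3275 and 6779 FPKM in BCL2L11 cells (replicates 2 and 1), 2824 and 7208 in TRIM9 cells, and 3576 and 4324 in GFP cells. RPS3A, RPL29, RPSA, RPL27 and RPL8 followed by mean FPKM. RPSA, also known as the laminin receptor precursor, had 1515 and 2777 FPKM in BCL2L11 cells, 1766 and 2992 in TRIM9 cells, and 1456 and 2616 in GFP cells. Its place among the 77 genes was the most even of these, between 5 and 7 in all 6 libraries. RPL8, a protein close to the peptidyl transferase centre, moved in rank between 2 and 41, and RPS27 between 3 and 51, so neighbours in this order were not set apart by their spread over libraries.

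RPL37, RPS9, RPL22, RPL28, RPL37A and RPS29 were lowest by mean FPKM. RPL37, a zinc-binding protein of the large subunit, was at 48.6 and 248 FPKM in BCL2L11 cells (replicates 2 and 1), 44.7 and 68.7 in TRIM9 cells, and 46.3 and 109 in GFP cells. The transcript that held most of its FPKM is 7573 nt long, and it took 32.3% to 85.4% of the gene's FPKM depending on the library. RPS9, which lies in the body of the small subunit and acts in decoding accuracy, had 62.8 and 192 FPKM in BCL2L11 cells, 70.4 and 164 in TRIM9 cells, and 61.9 and 118 in GFP cells. A further 568 to 1436 FPKM of RPS9 was assigned to 9 other sequences outside the chr-named ones. RPS18 had 1131 to 2659 FPKM on 5 such sequences, more than at its chr-named locus. RPL7A and RPS25 had 1 such copy each, at nearly the same FPKM as the chr-named locus. The levels printed for these genes are therefore parts of their totals.

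Processed pseudogenes also carry these sequences. Of 1225 listed by name, 101 passed the filter, and together they held 2.33 to 3.52 FPKM per 100 FPKM of the members. RPL41, RPL22, RPL39, RPL23A and RPS2 were the 5 members whose pseudogenes summed to over 10% of their own FPKM, led by RPL41 with 39.8%, and reads could have been split between gene and copy there. The values of these genes are uncertain to that extent.

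The plasmids were compared next, to see whether either trigger changed the set of ribosomal protein mRNAs. No member passed at an adjusted p of 0.05 with the BCL2L11 trigger against GFP (0 of 77, where 0.00675% of all genes passed, limma on log2 of FPKM plus 1), and none was under an unadjusted p of 0.05. The median log2 fold change was 0.14 over the members, 54 of them positive, and -0.08 over all genes tested. When 1 library was left out it ran between -0.37 (without BCL2L11 replicate 1) and 0.65 (without BCL2L11 replicate 2). Such a fit leaves the library sets unbalanced and has no term for them. The part of a single library therefore cannot be told apart from the difference between the sets. The widest log2 fold changes of members were RPL35A at 0.79 and RPS26 at -0.46. The lowest adjusted p of a member was 0.9998. A log2 change had a median 95% confidence interval of 1.35 to each side, and of 0.544 with the library set as a replicate block in limma. Under the block 0 members again passed, and 1 (RPL35A) was under an unadjusted p of 0.05, as were 527 of the 14806 genes.

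RPL35A, a large subunit protein mutated in some cases of Diamond-Blackfan anaemia, had 440 and 1001 FPKM in BCL2L11 cells (replicates 2 and 1), against 305 and 485 in GFP cells. Its values overlapped between the plasmids and were higher with the trigger within both library sets, with log2 differences of 0.53 in set 2 and 1.04 in set 1 (log2 fold change 0.79, 95% interval -0.48 to 2.05). This interval, like the SEs given for the trigger comparisons, is without the replicate block. Under the block RPL35A had an SE of 0.20 and an adjusted p of 0.814 in limma. RPL41, the smallest protein of the ribosome, had 733 and 1671 FPKM in BCL2L11 cells, against 668 and 657 in GFP cells (log2 fold change 0.74, SE 0.52). RPL41, RPL23A and RPL32 were the 3 members without overlap between the plasmids, all higher with the trigger, where 4.44% of all genes were, and RPL32 was nearly level in replicate 2. None of the 77 was lower without overlap (12.5% of all genes). The lead of RPL41 came from replicate 1, and in replicate 2 it was 0.14 on the log2 scale. RPS26, whose protein contacts the mRNA next to the exit channel, had 239 and 332 FPKM in BCL2L11 cells, against 241 and 627 in GFP cells. Here too replicate 1 held the difference, with values that overlapped (log2 fold change -0.46, SE 0.54). RPL17, RPL38 and RPS10, the next in order of p among members lower with the trigger, had log2 fold changes of -0.39, -0.28 and -0.25 and did not pass.

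With the TRIM9 trigger against GFP, again 0 of 77 passed (0.00675% of all genes) and 0 were under an unadjusted p of 0.05 in limma. The median log2 fold change was 0.17, with 58 positive, and -0.04 over all genes tested. It lay between -0.21 (without GFP replicate 2 or TRIM9 replicate 1) and 0.60 (without GFP replicate 1) with 1 library left out. Those fits too left the library sets unbalanced. With the replicate block 0 passed and 5 members, all higher with the trigger, were under an unadjusted p of 0.05 in limma (951 of the 14806 genes). They were RPL35A, RPL21, RPL41, RPL10 and RPL27, with adjusted p of 0.757 to 0.764. Both comparisons share the GFP libraries, so their directions are not independent. RPS14, a small subunit protein of the decoding platform whose loss underlies the anaemia of the 5q- syndrome, had 948 and 1872 FPKM in TRIM9 cells (replicates 2 and 1), against 943 and 556 in GFP cells. The plasmids did not overlap for it, but its log2 difference was 0.01 in set 2 and 1.75 in set 1 (log2 fold change 0.88, SE 0.50, unadjusted p = 0.123 in limma). RPS25, needed for initiation at several viral internal entry sites, had 333 and 586 FPKM in TRIM9 cells, against 294 and 233 in GFP cells. RPL41 had 974 and 1494 FPKM in TRIM9 cells, against 668 and 657 in GFP cells. It was higher within both sets, by 0.54 in set 2 and 1.18 in set 1 on the log2 scale. Without overlap between the plasmids, 8 members were higher (6.61% of all genes) and 0 lower (11.2% of all genes). The 8 were RPL10, RPL12, RPL21, RPL23A, RPL27, RPL41, RPS14 and RPS25. Among members with lower values, RPL37, RPS13, RPS26 and RPL15 had the lowest p, with log2 fold changes of -0.36, -0.30, -0.24 and -0.18.

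With the BCL2L11 trigger against the TRIM9 trigger, 0 of 77 passed (0.0135% of all genes), 0 were under an unadjusted p of 0.05 in limma, and the median log2 fold change was -0.03, with 33 positive. The median was -0.58 without BCL2L11 replicate 1 and 0.48 without BCL2L11 replicate 2, fits that again leave the library sets unbalanced. With the replicate block 0 passed and RPS20 alone was under an unadjusted p of 0.05 in limma (441 of the 14806 genes). RPL37 had the highest value, with 48.6 and 248 FPKM in BCL2L11 cells (replicates 2 and 1), against 44.7 and 68.7 in TRIM9 cells, and its 2 highest libraries of the 4 were both replicate 1 (log2 fold change 0.98, SE 0.77). RPL15 was the 1 member without overlap, with 712 and 973 FPKM in BCL2L11 cells, against 621 and 701 in TRIM9 cells (5.69% of all genes were higher without overlap), and 0 members were lower without overlap (8.5% of all genes). RPL28 had the lowest log2 fold change (-0.48, SE 0.54), with 185 and 294 FPKM in BCL2L11 cells, against 195 and 543 in TRIM9 cells. RPLP1, RPS20 and RPS14 had log2 fold changes of -0.37, -0.45 and -0.46, RPS27 0.58 and RPL36A 0.37, and none passed.

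Within the library sets the plasmids can be compared 1 library against 1, which has no replicate check. In set 2 most members lay close together. The median log2 difference was 0.03 for BCL2L11 minus GFP (SD over members 0.21), 0.20 for TRIM9 minus GFP (SD 0.23) and -0.15 for BCL2L11 minus TRIM9 (SD 0.19). In set 1 the medians were 0.22, 0.11 and 0.06, and the members spread more widely, with SDs of 0.59, 0.63 and 0.46. In set 2, 62 members were higher in TRIM9 than in GFP cells (80.5%, and 37.0% of other genes) and 13 were higher in BCL2L11 than in TRIM9 cells (16.9%, and 44.2% of other genes). In set 1 these numbers were 46 (59.7%, and 48.0% of other genes) and 45 (58.4%, and 42.1% of other genes). The other genes had SDs of 0.26 to 0.33 in set 2 and 0.38 to 0.57 in set 1. The 529 of them with a mean FPKM of at least 100 spread more widely than the members. Their SDs were 0.49 to 0.69 in set 2 and 0.78 to 0.83 in set 1. Their medians, in the order above, were -0.07, -0.03 and -0.05 in set 2 and 0.15, 0.10 and 0.02 in set 1. Higher in both sets were 34 members with BCL2L11 against GFP (10.8% of all genes) and 34 with TRIM9 against GFP (16% of all genes), and 8 with BCL2L11 against TRIM9 (22.3%). Lower in both sets were 7, 3 and 27 members (40.7%, 30.7% and 36.1% of all genes).

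**Figure D2:**
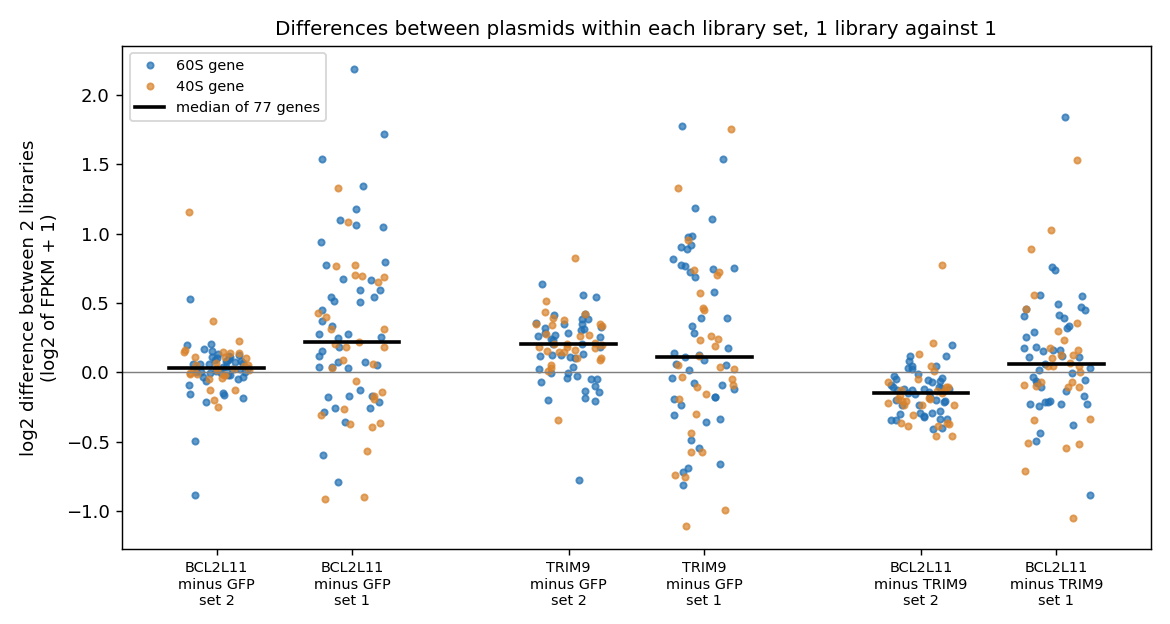
log2 difference of FPKM plus 1 between 2 libraries of the same set for each of the 77 genes (1 point per gene, bars at the median), for BCL2L11 minus GFP, TRIM9 minus GFP and BCL2L11 minus TRIM9, set 2 left of set 1 in each pair. Most points of set 2 lie close to their medians of 0.03, 0.20 and -0.15, and those of set 1 are spread more widely around 0.22, 0.11 and 0.06. Single points of set 2 reach -0.88 and 1.16, -0.78 and 0.83, and -0.46 and 0.78, in the same order.

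How a gene's FPKM was divided over its transcripts also varied more in set 1. The share of a gene's FPKM held by its leading transcript had a range over the 3 libraries of a set with a median of 9.77 percentage points in set 2 and 31.3 in set 1, and the range was the larger in set 1 for 59 of the 77 genes. For RPL8 the leading transcript held 67.7% to 70.5% in the libraries of set 2 and 18.6% to 70.1% in those of set 1. RPL27A, which had 297, 319 and 548 FPKM in set 2 (BCL2L11, TRIM9, GFP) and 1038, 778 and 227 FPKM in set 1, had a range of 41.7 points in set 2 and 45.2 in set 1.

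The authors' deposited tables of gene changes list all 77 members, with 0 under a q of 0.05 and 0 under a p of 0.05 for either trigger. Over all genes listed there, 5930 for BCL2L11 and 6131 for TRIM9, 0 were under a q of 0.05, the trigger gene included. The count of 0 members at that q is thus the same as for all listed genes. In the authors' deposited table for BCL2L11 the members had a median log2 fold change of -0.36, with 20 positive, and in that for TRIM9 of 0.01, with 40 positive. The trigger gene itself is strongly positive in each of the authors' deposited tables (log2 fold change 12.88 for BCL2L11 and 11.78 for TRIM9), so their ratio is trigger over control. The medians from summed FPKM given above, 0.14 and 0.17, differ from these, and no source used here names the tool behind the authors' deposited tables.

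The members' levels differed more between the library sets than between plasmids. In set 2 all 77 members had lower fitted levels than in set 1, and 62 passed at an adjusted p of 0.05, all lower, in limma with the plasmid as a term. Over all genes tested 33.1% passed, 10.1% as lower and 23% as higher, where the members had 0. The median log2 fold change of set 2 over set 1 was -0.85 for the members and 0.07 for all genes tested. There were 63 members without overlap between the sets, all lower in set 2 (17.8% of all genes), and 68 were lower in each of the 3 plasmids (23.4% of all genes). In the other direction, 0 members were higher without overlap (32.4% of all genes) and 0 in each of the 3 plasmids (38.8% of all genes). The median log2 difference of replicate 2 minus replicate 1 was -1.04 in BCL2L11 cells, -0.77 in TRIM9 cells and -0.80 in GFP cells. By subunit, 35 of 46 genes of the 60S subunit (median -0.84) and 27 of 31 of the 40S subunit (median -0.89) were called lower. The count of 62 was 37 when FPKM was rescaled without BCL2L11, TRIM9 and mitochondrial genes. There 579 of all 14806 genes were lower (1496 in the main fit), and 2 members had a fold change above 0. The count was 68 when FPKM was rescaled by the median ratio, where 2224 of all genes were lower. It was 0 with no filter on low values, where no gene passed and 55 members were under an unadjusted p of 0.05 in limma. It was 23 or 19 when TRIM9 replicate 1 or 2 was left out, both of which compare the sets in BCL2L11 and GFP cells alone. There 271 or 252 of all genes were lower, and the direction stayed in the median of all these fits. The cause of the difference between the sets was not tested, and other measures that differed between them are given below with their values.

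**Figure D3:**
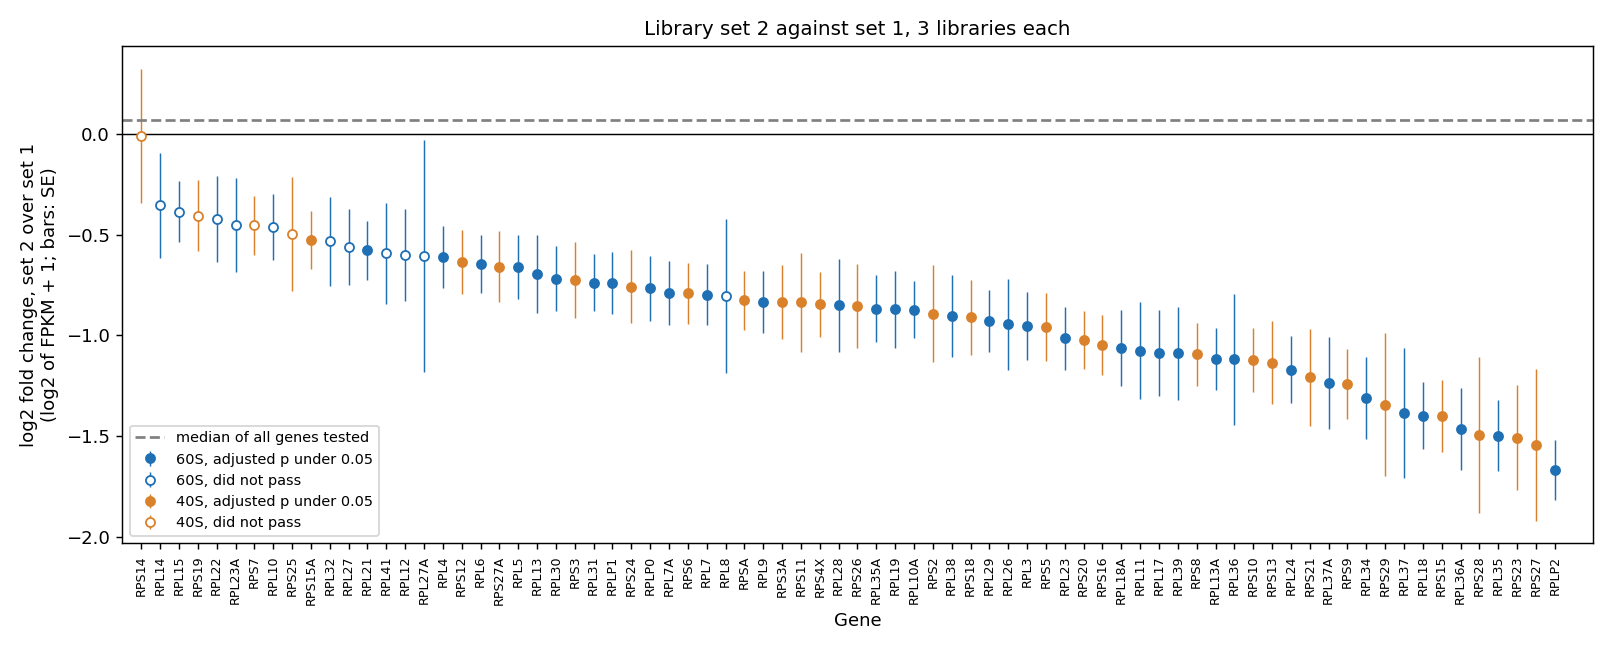
log2 fold change of set 2 over set 1 (3 libraries each) for 76 of the 77 genes, with bars of 1 SE, filled where the adjusted p was under 0.05 in limma and open where it was not, blue for 60S and orange for 40S genes. All points lie below 0 and below the dashed median of all genes (0.07), between RPS14 at -0.01 and RPLP2 at -1.67.

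The acidic stalk, which calls elongation factors to the ribosome, held the gene with the widest difference. RPLP2 had 615, 641 and 643 FPKM in set 2 (BCL2L11, TRIM9, GFP) and 2039, 1803 and 2227 FPKM in set 1, which put set 2 at 31.3% of set 1 (log2 fold change -1.67, SE 0.15, adjusted p = 0.0108 in limma). Its partner RPLP1 had 858, 1058 and 794 FPKM in set 2 and 1276, 1724 and 1527 in set 1 (log2 fold change -0.74, SE 0.15). RPLP0, the base of the stalk, had 1097, 1394 and 1092 FPKM in set 2 and 1798, 2080 and 2196 in set 1 (log2 fold change -0.77, SE 0.16). All 3 passed, their sets did not overlap, and RPLP1 and RPLP0 stood at 59.9% and 59.0% of set 1. The stalk proteins are used in unequal number to the others, as P1 and P2 pairs on 1 P0.

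RPL35, at the exit of the peptide tunnel, had 881, 833 and 892 FPKM in set 2 and 3132, 2285 and 2075 in set 1 (log2 fold change -1.50, SE 0.18, adjusted p = 0.0108 in limma). RPL18, also of the large subunit, had 762, 788 and 721 FPKM in set 2 and 2362, 1725 and 1953 in set 1 (log2 fold change -1.40, SE 0.17). RPS15, which is needed to export the small subunit from the nucleus, had 945, 1233 and 1084 FPKM in set 2 and 2632, 2550 and 3452 in set 1 (log2 fold change -1.40, SE 0.18). In each of these 3 genes every library of set 2 was below every library of set 1, by a margin wider than the spread within either set. Of the 7 genes of the tunnel exit, 6 passed as lower, with RPL23A as the exception, a share near the 80.5% of all members.

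RPL5 and RPL11 join 5S rRNA in the particle that also binds MDM2 when assembly fails. RPL5 had 1261, 1444 and 1229 FPKM in set 2 and 1953, 2000 and 2264 in set 1 (log2 fold change -0.66, SE 0.16). RPL11 had 568, 571 and 588 FPKM in set 2 and 1662, 1359 and 794 in set 1 (log2 fold change -1.08, SE 0.24). Both passed without overlap, and for RPL11 the low GFP library of set 1 lay nearest to set 2. RPS6, the substrate of S6 kinase below mTOR, had 1237, 1359 and 1217 FPKM in set 2 and 2385, 2310 and 1924 in set 1 (log2 fold change -0.79, SE 0.15). RPS27A, made as a fusion with ubiquitin, had 990, 1144 and 845 FPKM in set 2 and 1326, 1669 and 1704 in set 1 (log2 fold change -0.66, SE 0.18), and RPSA stood at 56.5% of set 1 (log2 fold change -0.83, SE 0.15). All 3 passed and did not overlap. Of 9 genes mutated in Diamond-Blackfan anaemia, an inherited failure of red cell production, 7 passed as lower, which is also near the 80.5% of all members. RPS19, the one mutated most often, did not (log2 fold change -0.41, SE 0.18, adjusted p = 0.126 in limma), with 1158, 1122 and 1044 FPKM in set 2 and 1204, 1759 and 1490 in set 1, and neither did RPS7.

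Altogether 15 members did not pass. They were RPS7, RPL27, RPL10, RPL12, RPL15, RPL32, RPL41, RPS19, RPL8, RPL22, RPL23A, RPS25, RPL14, RPL27A and RPS14. In 9 members replicate 2 was not below replicate 1 in GFP cells, and all 9 are among these 15. RPL8 shows the pattern, with 1378, 1355 and 1542 FPKM in set 2 (BCL2L11, TRIM9, GFP) and 3850, 3398 and 1170 in set 1. Its BCL2L11 and TRIM9 libraries lay far apart between the sets and its GFP libraries the other way round. RPS14, with 1037, 948 and 943 FPKM in set 2 and 904, 1872 and 556 in set 1, was the 1 member higher in set 2 in BCL2L11 cells. With either GFP library left out, which leaves the sets compared in BCL2L11 and TRIM9 cells alone, 70 members passed. Lower calls over all 14806 genes rose there too, from 1496 in the main fit to 3516 or 3530.

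Transcript length moved with this difference in other genes. Among 529 other genes of mean FPKM of at least 100, the median log2 fold change of set 2 over set 1 was -0.85 at 500 to 750 nt (78 genes), -0.77 at 750 to 1000 nt (74), -0.62 at 1000 to 1500 nt (103), -0.21 at 1500 to 2500 nt (152) and 0.15 above 2500 nt (88). Over all other genes tested, most of them of far lower FPKM, these medians were -0.39 (683 genes), -0.48 (696), -0.37 (1559), -0.11 (3536) and 0.38 (7566). The members had medians of -0.97 (24 genes), -0.87 (19), -0.80 (21) and -0.61 (7) in the same first 4 classes, and 2 members above 2500 nt had -0.87. Below 500 nt the 4 members had a median of -1.38, the 34 other genes of mean FPKM of at least 100 had -0.85, and all 689 other genes had -0.28. Over all other genes the median was thus lowest at 750 to 1000 nt and not in the shortest class. Lengths are weighted by FPKM and have a median of 908 nt in the members. The members' correlation of the difference with log2 length was r = 0.26 (Spearman rho 0.32, across 77 genes), and that of the other genes was r = 0.52 (rho 0.63, across 529 genes), given as a description over genes that share the 6 libraries. Mitochondrially encoded RNAs also moved with the sets, at 9.22% to 10.2% of FPKM in set 2 and 5.82% to 7.58% in set 1, while the markers of HEK293 cells were mixed. Of 5 tested, 2 passed, both higher in set 2, IRS4 (65.4 to 80.3 FPKM in set 2, 8.61 to 16.0 in set 1) and LIN28B (26.1 to 32.2 FPKM in set 2, 10.2 to 13.0 in set 1). NEFL, NEFM and VIM did not pass, at log2 fold changes of 0.43, 0.01 and -0.16. The 1 blood marker tested, HBA1, passed as lower in set 2, with 2.35 to 3.77 FPKM in set 2 and 5.61 to 7.45 in set 1. The libraries as a whole differed too. FPKM summed over all transcripts was 376984 to 389639 in set 2 and 441892 to 510837 in set 1. Transcripts above 0 numbered 109805 to 110534 in set 2 and 83584 to 100723 in set 1. The part of library scale, length, RNA composition and cell state in the result was not tested.

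**Figure D4:**
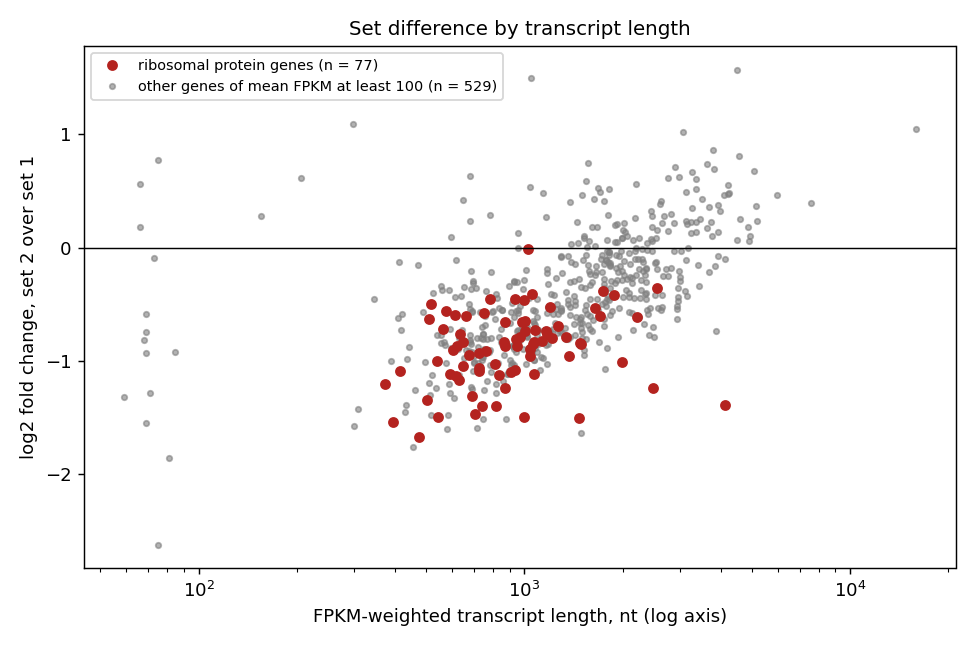
log2 fold change of set 2 over set 1 against the FPKM-weighted transcript length (nt, log axis) for the 77 members (red) and 529 other genes of mean FPKM of at least 100 (grey). The members lie mostly between about 500 and 1500 nt and below 0, where they overlap other genes of the same length. Their median is the lower in each length class given above, and the longest other genes lie around or above 0.

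Members with and without a TOP tract had nearly the same difference between the sets. The median log2 fold change of set 2 over set 1 was -0.86 in the 46 members with a tract at an annotated start and -0.85 in the 16 without one, and in other tested genes it was 0.04 with a tract and 0.12 without. RPS14, whose tract shown above runs over 10 letters, had a log2 fold change of -0.01, and RPLP2, with 13 letters, had -1.67. No tract in a window says only that these letters are not at that RefSeq start.

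Other genes of the same pathway were read from lists. No gene of any of these lists passed for either trigger or between the triggers in limma. Between the library sets, proteins of the mitochondrial ribosome, a separate machine that shares none of these subunits, had 34 genes lower in set 2 and 2 higher of 75 tested (over all genes tested 10.1% were lower and 23% higher), with a median log2 fold change of -0.57. MRPL27 and MRPL41 had the lowest p (log2 fold changes -1.43 and -1.48). Of 8 paralogs and fusions of the cytosolic set tested, 5 were lower (median -0.58), among them FAU, a ubiquitin-like protein fused to RPS30, with 480, 478 and 489 FPKM in set 2 (BCL2L11, TRIM9, GFP) and 1074, 860 and 1268 in set 1. Of 25 other TOP or translation factor genes, 9 were lower and 1 was higher (median -0.29). EEF1G, a subunit of the elongation factor 1 complex, was lower (log2 fold change -1.64, SE 0.27) and the initiation factor gene EIF3A higher (0.88, SE 0.16).

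The machinery that makes ribosomes gave calls in both directions, as all genes tested did (23% higher and 10.1% lower). Of 30 assembly factors 4 were higher and 4 lower (median 0.00), with EIF6, which holds 60S subunits apart from 40S, lower at -0.89 and the rRNA methylase gene DIMT1 higher at 0.71. Of 11 RNA polymerase I genes tested, 5 were higher and 1 lower (median 0.28), of 12 regulators of TOP mRNAs 4 were higher and 1 lower (median 0.33), and of 9 chaperones of single ribosomal proteins 1 was lower (median -0.11). The S6 kinase gene RPS6KB1 had 16.1, 17.6 and 19.7 FPKM in set 2 and 7.30, 8.32 and 15.3 in set 1 (log2 fold change 0.79, SE 0.18). TSR2, the chaperone of RPS26, had 13.3, 10.3 and 14.4 FPKM in set 2 and 27.0, 20.8 and 19.2 in set 1 (log2 fold change -0.77, SE 0.17). Both passed, and neither gene had overlapping sets. Median transcript lengths were 1246 nt in the mitochondrial list, 866 nt in the paralogs and fusions, 2364 nt in the other TOP and translation genes, 2325 nt in the assembly factors, 2094 nt in the RNA polymerase I genes, 5743 nt in the regulators and 3566 nt in the chaperones, and the part of length in these calls was not tested.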

How the data were processed

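Poly-A RNA of 6 libraries was used, and the small RNA libraries were not. The submitters' processing notes name the hg38 genome, StringTie 2.1.3, STAR, cutadapt 3.4 and DESeq2 1.20.0. Each deposited transcript table holds, per the file headers, FPKM and coverage (a signal) for 250719 transcripts. Tables of gene changes deposited by the authors list a ratio (fold change), the log2 of it, and the p-value and q-value, for 5930 (BCL2L11) and 6131 (TRIM9) genes.

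Transcript FPKM was summed by gene. Genes that reached an FPKM of 1 in 2 or more libraries were fitted in limma 3.58.1 (R 4.3.3; trend) as log2 of FPKM plus 1. Fold changes are on that scale, which understates changes of low genes. The trigger comparisons used the plasmid alone, and the comparison of library sets the set with the plasmid as a term. Two-sided p-values were adjusted over all 14806 genes (Benjamini-Hochberg). FPKM holds no counts, and whole reads were not recovered, so no count test was run. The set differences of the plasmids correlated at 0.586 (BCL2L11 and GFP), 0.493 (TRIM9 and GFP) and 0.829 (BCL2L11 and TRIM9) over 14806 genes, so same-numbered libraries deviated together, a pairing seen in the data and not stated in the labels. Replicates measure the spread between these samples only.

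Genes named with values were the 6 highest and 6 lowest by mean FPKM, the 4 of lowest p per direction and comparison, members with listed roles, and up to 2 genes of lowest p per other list. Others named were chosen after their values were seen, as were RPL32, RPL10, RPL12, RPL21 and RPL27A. The members and lists were chosen with earlier results of these data known. Values of 1 member and of 1 related gene are not reported here singly. The fits were tested on simulated data. For the trigger comparisons those data held no library-set difference, so they do not show how these fits perform on the real libraries. Varied were scaling, pseudocount, filter, trend, the library-set term, off-chromosome loci, the measure of level and each library.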

Additional observations from a re-analysis of the deposited data

How the results depend on the processing

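In each trigger comparison 0 of 77 members passed under every alternative run, and with the library set as a replicate block the count was also 0, the lowest adjusted p of a member being 0.757, while 1, 6 and 3 genes passed in all. Leaving out each library in turn moved the members' median from -0.37 to 0.65 (BCL2L11 against GFP), from -0.21 to 0.60 (TRIM9 against GFP) and from -0.58 to 0.48 (BCL2L11 against TRIM9), since it leaves the sets unbalanced. The members' share was 10.2% (BCL2L11), 10.8% (TRIM9) and 9.82% (GFP) by assigned bases, a measure chosen after seeing the data, and 16.5% to 25.1%, 17.7% to 24.8% and 15.8% to 24.7% with 1 library left.

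For set 2 against set 1 the median stayed below 0 under every alternative run. The 62 members lower became 37, with a median of -0.48, when FPKM was rescaled without BCL2L11, TRIM9 and mitochondrial genes, a scaling that moved the median of all genes to 0.36. Over all 14806 genes, 579 were lower under that scaling, against 1496 in the main fit, and 2 members had a fold change above 0. With FPKM rescaled by the median ratio 68 members were lower, with a median of -0.95, as were 2224 of all genes. The count of members was 0 with no filter on low values, where 55 members were under an unadjusted p of 0.05, no gene of any kind passed and the lowest adjusted p of a member was 0.0650. Leaving out each library gave 19 to 70 members, with 23 and 19 without TRIM9 replicates 1 and 2 and 42 and 43 without BCL2L11 replicates 2 and 1, and a median of -0.91 to -0.81. Lower calls over all 14806 genes moved the same way. They were 271 and 252 without TRIM9 replicates 1 and 2, and 563 and 561 without BCL2L11 replicates 2 and 1. Without GFP replicates 1 and 2 they were 3516 and 3530. Either library of a plasmid leaves the same contrast over the other plasmids, so these are 3 checks and not 6. By assigned bases 73 members passed, all lower, where 1747 of all 14806 genes were lower. Over single named genes and alternatives in this comparison, 456 calls were unchanged, 19 were gained and 80 lost. The causes were not tested.

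Precision was limited by having 2 libraries per plasmid.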
